A study of Mus musculus with 8 samples.

Results

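Oxidative phosphorylation genes were compared between the jejunum of C3H/HeJ mice (C3H) and that of C57BL/6 mice (B6). The members were all genes whose GENCODE M21 symbol starts with Nduf, Uqcr, Atp5, Cox4, Cox5, Cox6, Cox7, Cox8, mt-Nd, mt-Co, mt-Atp or mt-Cytb, together with Sdha, Sdhb, Sdhc and Sdhd, and 9 symbols marked as pseudogenes with -ps were left out. This gave 111 of the 56941 gene identifiers in the table, 98 of them encoded in the nucleus and 13 in mitochondrial DNA. By complex they were 46 genes of complex I, 8 complex I assembly factors (Ndufaf), 4 of complex II, 9 of complex III, 24 of complex IV and 20 of complex V. The name prefix also took in genes that are not subunits, among them the 8 assembly factors and 4 genes annotated as processed pseudogenes (Ndufa11b, Ndufb4c, Ndufs6b and Cox6c2). Cox7a2l, which joins complexes III and IV, was counted with complex IV.

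Poly(A)-selected, stranded libraries were made from bulk jejunal RNA, 4 from C3H/HeJ mice (replicates 1, 3, 4 and 5) and 4 from C57BL/6 mice (replicates 2, 3, 4 and 5). C3H/HeJ is an inbred strain known for a defective Tlr4 gene, and C57BL/6 is the common laboratory strain. Mice of both strains were naive, with an age given as 6 to 8 weeks. They shared housing for a minimum of 8 weeks until tissue harvest, so that strain was the only labelled difference. The labels do not say when the age was taken, so the age at harvest is unclear. All 8 libraries carried the same batch label. Sex, cage and the C57BL/6 substrain are not stated in the sources used here. Whether each library came from its own animal is not stated either, so p-values reflect library-to-library variation, which may be partly technical.

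Oxidative phosphorylation takes place in the inner mitochondrial membrane. Complexes I and II pass electrons from NADH and succinate to ubiquinone, complex III passes them on to cytochrome c and complex IV to oxygen, while complexes I, III and IV pump protons and complex V, the ATP synthase, uses the proton gradient to make ATP. Mitochondrial DNA encodes a few hydrophobic core subunits of every complex except complex II, and the nucleus encodes all the others, so the complexes need transcripts from both genomes. In the small intestine the absorptive enterocytes are rich in mitochondria, which power nutrient uptake.

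The libraries held 37205896 to 58251332 counts, and transcripts of the mitochondrial genome took 3.61% to 5.08% of them. The enterocyte markers Vil1, Alpi, Fabp1, Fabp2, Apoa1, Apoa4, Sis and Lct summed to 47981 to 78954 CPM in C3H and 51730 to 67649 CPM in B6 and overlapped between the strains. CPM here are read counts scaled to the library's size, corrected by TMM factors. Markers of the pancreas, an organ that lies against the small bowel, ranged more widely: they summed to 7.46 to 2229 CPM in C3H, highest in C3H 3 (2229) and C3H 5 (1006), and to 7.17 to 193 CPM in B6. Smooth muscle markers summed to 593 to 701 CPM in C3H and 466 to 806 CPM in B6, and markers of T cells and tuft cells were lower in C3H while those of enteroendocrine cells and red cells were higher. Goblet cell markers (Muc2 and Tff3) summed to 1306 to 1436 CPM in C3H and 1546 to 1868 CPM in B6, with neither gene called, and plasma and B cell markers (Jchain and Cd79a) to 749 to 1004 CPM in C3H and 1134 to 1377 CPM in B6, with 1 of the 2 called lower. In bulk tissue, fewer cells of a type and less RNA per cell cannot be told apart.

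Most oxidative phosphorylation genes were close to level between the strains. Of 111 members, 106 had enough counts to be tested, and 7 passed an adjusted p of 0.05 in edgeR's quasi-likelihood test with Benjamini-Hochberg adjustment over all 18025 genes tested. Ndufa12 and Atp5g1 were higher in C3H, and mt-Nd3, Ndufa3, Ndufa6, Ndufaf2 and Cox7a2l were lower. The members called came to 6.6%, beside 21.4% of all genes tested; 2 higher members stand beside 11.3% of genes called higher, and 5 lower members beside 10.1% called lower. With library totals as the only scaling the split was 3 higher and 1 lower. Leaving out C3H 3 gave 1 higher and 1 lower, leaving out B6 5 gave 2 higher and 1 lower, and without the 4 libraries richest in pancreatic transcripts (C3H 3, C3H 5, B6 2 and B6 3), with 2 libraries a strain remaining, mt-Nd3 was the only member called. The other tools gave similar numbers of calls, 9 with DESeq2 and 8 with limma-voom, and 13 members had an unadjusted p under 0.05 in edgeR.

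The differences were small as well as few. On the log2 scale (C3H over B6) the median difference was -0.02 over the members tested and 0.03 over all genes tested, and the median size of the difference, whatever its sign, was 0.09 for members and 0.20 for all genes. The 95% confidence interval of the fold change lay within 1.5-fold in both directions for 91 members (85.8%), against 53.4% of all genes. The members are abundant, and abundant genes are measured more precisely, so the same counts were made for genes with a mean of at least 50 CPM: 6 of 82 members (7.32%) were called against 20% of 3524 genes, and the interval lay within 1.5-fold for 95.1% of members against 78% of genes. Members are not independent of each other, and no test was made of the list as a whole.

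**Figure D1:**
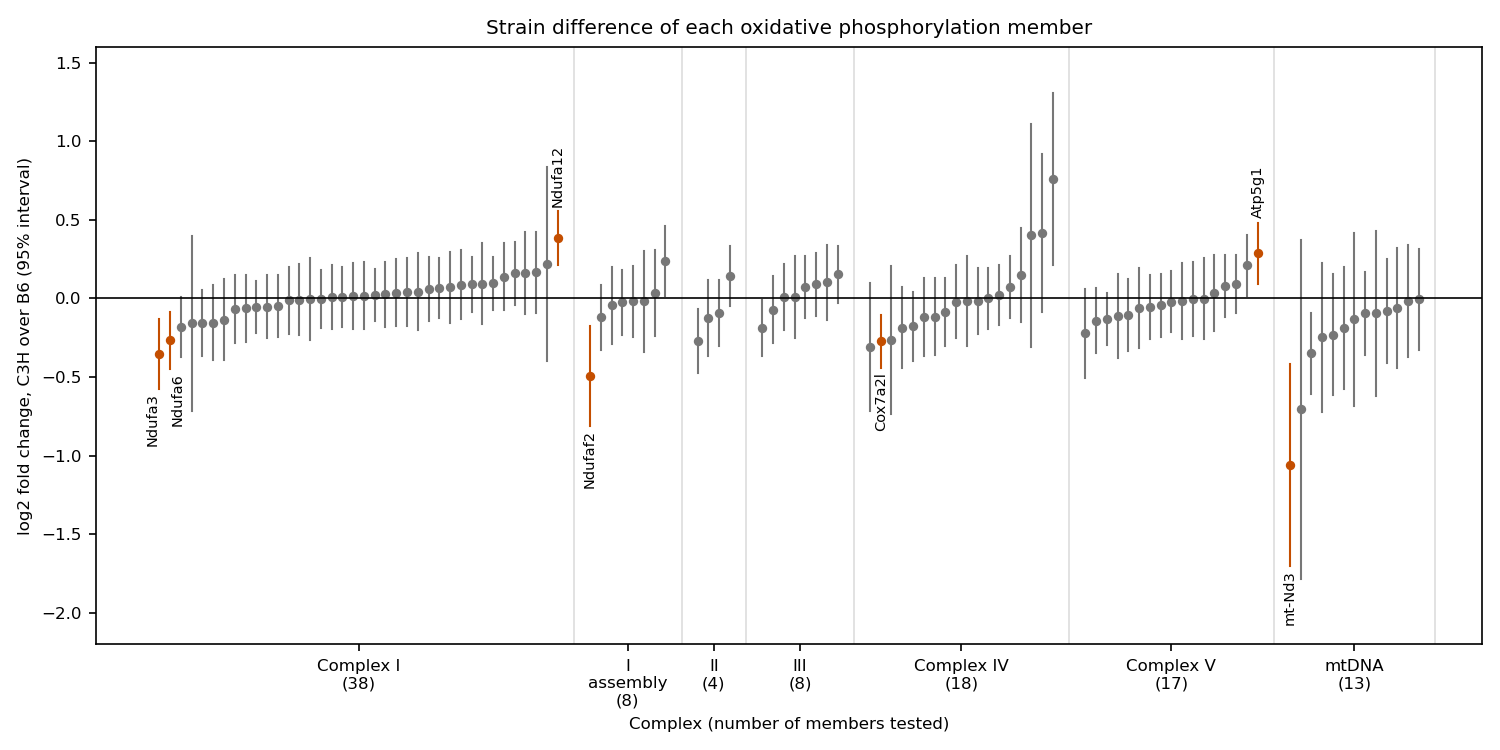
Strain difference of each of the 106 members tested, by complex. The y axis is the log2 fold change, C3H over B6, with its 95% confidence interval; nuclear members are sorted by difference within each complex and the 13 members of mitochondrial DNA (mtDNA) are shown apart, and orange marks the 7 members past an adjusted p of 0.05. Most points lie near 0, while all 13 mitochondrial points lie below it with TMM scaling (3 lie above it with library totals only).

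Library by library, the median level of the nuclear members overlapped between the strains. Each library's median deviation from the members' own means over the 8 libraries was -0.06, -0.13, 0.05 and 0.12 in C3H 1, 3, 4 and 5, and -0.04, 0.05, -0.11 and 0.11 in B6 2, 3, 4 and 5, on the log2 CPM scale. Both strains covered nearly the same range. Nuclear members summed to 17793 ± 1469 CPM in C3H and 17950 ± 1038 CPM in B6 (SD, n = 4 each), a ratio of 0.991. As a share of all counts they took 1.81% ± 0.0662 in C3H and 1.76% ± 0.147 in B6, and on this scale, without TMM factors, the order of libraries differed: C3H 1 was highest of the C3H libraries at 1.90% and C3H 5 was at 1.78%. The summed CPM of the nuclear members of each complex gave C3H to B6 ratios of 0.993 for complex I, 0.953 for complex II, 1.02 for complex III, 0.955 for complex IV and 1.01 for complex V, and the ranges of the 2 strains overlapped for each.

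The mitochondrially encoded members varied more than the nuclear ones between B6 libraries, and about as much between C3H libraries: the SD of the library medians was 0.28 in B6 and 0.11 in C3H, against 0.10 in B6 and 0.11 in C3H for nuclear members. Their median deviation was -0.03, 0.00, 0.02 and -0.23 in C3H 1, 3, 4 and 5, and 0.24, -0.25, 0.37 and -0.07 in B6 2, 3, 4 and 5. B6 2 and B6 4 stood highest and B6 3 lowest, so the B6 libraries spanned the whole C3H range. The 13 members summed to 40547 ± 1966 CPM in C3H and 43155 ± 8335 CPM in B6 (SD, n = 4 each), and the difference was smaller than the spread between B6 libraries.

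**Figure D2:**
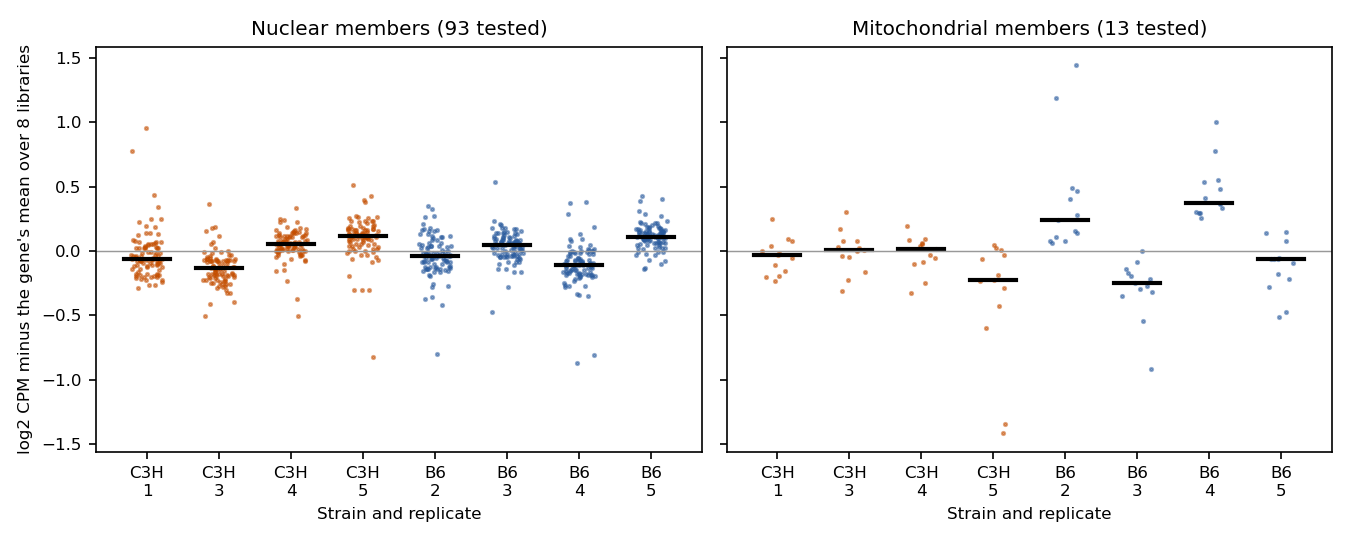
Deviation of each member from its own mean over the 8 libraries, in log2 CPM (y axis), by library (x axis), for 93 nuclear and 13 mitochondrial members tested. Points are genes and black bars are library medians; the nuclear medians lie between -0.13 and 0.12 in both strains, and the mitochondrial medians run from -0.25 in B6 3 to 0.37 in B6 4.

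Complex I, NADH dehydrogenase, is the largest of the complexes, and 1 of its 45 tested genes was higher in C3H and 3 were lower, with a median log2 difference of 0.00. Its 38 nuclear members gave 1 higher, 2 lower and a median of 0.02. Ndufv2, an iron-sulfur subunit of the NADH-oxidising module, averaged 186 ± 9.84 CPM in C3H and 194 ± 6.06 CPM in B6 (SD, n = 4 each), a log2 difference of -0.06 ± 0.07 (SE), and did not pass the test.

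Ndufa12, an accessory subunit at the junction of the NADH-oxidising and membrane parts, had the smallest adjusted p of any member. It was at 103, 96.5, 96.1 and 101 CPM in C3H 1, 3, 4 and 5, against 72.4, 77.3, 71.2 and 82.4 CPM in B6 2, 3, 4 and 5. Every C3H library was above every B6 library. The log2 difference was 0.38 ± 0.08 (SE), or 1.31-fold, with an adjusted p of 0.0042 in edgeR. The call held when any single library was left out, with adjusted p at most 0.0213. It did not hold without the 4 pancreas-rich libraries, where the adjusted p was 0.226. The call was also lost with a replicate block in the 6 libraries that share replicate numbers, and held in those libraries without the block. Of all 50-base stretches of its transcripts 26.2% also occur in another annotated gene, most of them in Gm15920, and reads from there cannot be placed with certainty.

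Ndufa6, an accessory subunit that holds the mitochondrial acyl carrier protein in the matrix arm, was at 126, 129, 150.5 and 146 CPM in C3H 1, 3, 4 and 5, against 171, 165, 165 and 162 CPM in B6 2, 3, 4 and 5. The groups did not overlap, and the B6 libraries lay close together. This was a log2 difference of -0.27 ± 0.08, with an adjusted p of 0.0405 in edgeR, and the call was lost in 6 of the 8 fits that left out 1 library, those without C3H 1, C3H 3 or any of the B6 libraries, with adjusted p up to 0.0940. Ndufa3, a small accessory subunit of the membrane arm, was at 60.8, 58.5, 59.6 and 69.6 CPM in C3H 1, 3, 4 and 5, against 72.9, 80.7, 71.3 and 92.3 CPM in B6 2, 3, 4 and 5. Its groups did not overlap either, though the highest C3H library lay just under the lowest B6 library. The log2 difference was -0.35 ± 0.10, with an adjusted p of 0.0295, and the call was lost without C3H 1, C3H 3, C3H 4, B6 3 or B6 5, with adjusted p up to 0.0776. Neither gene shares a 50-base stretch with another annotated gene.

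Promoters are shown for Ndufa12 and Ndufa6, which moved in opposite directions, and for Uqcrc1, which stayed level. Oxidative phosphorylation promoters are known for recurring factor motifs. Sequences are RefSeq promoters on GRCm38.p6, from 250 bases before to 50 after the start of the gene, 5′ to 3′ on the gene's strand, with capitals marking the NRF1 motif (GCGCA, any base, then GCGC, or its reverse complement).
Ndufa12, chr10:94198785-94199084, plus strand: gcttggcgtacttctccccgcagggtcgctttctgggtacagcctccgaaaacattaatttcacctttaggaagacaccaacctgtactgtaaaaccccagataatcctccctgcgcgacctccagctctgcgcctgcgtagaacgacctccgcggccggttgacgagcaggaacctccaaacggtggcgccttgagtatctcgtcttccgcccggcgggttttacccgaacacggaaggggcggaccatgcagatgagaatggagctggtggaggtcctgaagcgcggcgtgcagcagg
Ndufa6, chr15:82354242-82354541, minus strand: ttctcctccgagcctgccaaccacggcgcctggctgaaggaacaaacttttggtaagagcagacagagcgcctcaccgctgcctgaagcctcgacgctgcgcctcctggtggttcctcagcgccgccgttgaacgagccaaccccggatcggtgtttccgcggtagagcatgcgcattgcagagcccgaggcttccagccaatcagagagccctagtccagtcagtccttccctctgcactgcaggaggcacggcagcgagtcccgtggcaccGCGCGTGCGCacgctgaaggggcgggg
Uqcrc1, chr9:108936398-108936697, plus strand: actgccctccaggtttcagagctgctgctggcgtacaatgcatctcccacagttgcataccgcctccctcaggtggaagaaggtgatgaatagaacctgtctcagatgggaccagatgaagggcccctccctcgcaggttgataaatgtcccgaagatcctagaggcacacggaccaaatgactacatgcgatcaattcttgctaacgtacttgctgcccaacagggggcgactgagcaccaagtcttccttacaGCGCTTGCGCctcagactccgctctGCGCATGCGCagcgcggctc
Ndufa12 has no match in this window, Ndufa6 has 1, beginning at base 24 after the start, and Uqcrc1 has 2, beginning at bases 6 and 31. Of 98 nuclear members, 76 had a RefSeq promoter, 81 promoters in all. The NRF1 motif was in 24.7% of these, against 4.6% of the 32851 promoters in the table. The ETS core CCGGAAG was in 22.2% against 8.86%, and the YY1 motif ATGGCGG in 16% against 4.05%. The estrogen-related receptor motif TCAAGGTCA was in 2.47%, which is only 2 promoters, against 0.423%. Base composition was not matched between the sets of promoters. Both strands were searched, and none of the motifs contains another. Of the 6 nuclear members that were called, only Ndufa6 held any of the 4 motifs in its window. In all, 41 of the 76 nuclear members with a promoter held the NRF1, ETS or YY1 motif. No test was made of the called members against the others.

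Among the complex I assembly factors, which help to build the complex and are not part of the finished enzyme, 1 of 8 was called, lower in C3H, with 2 at an unadjusted p under 0.05. Ndufaf2, a chaperone related in sequence to Ndufa12 that occupies the place of that subunit in the assembling complex, was at 4.99, 3.57, 3.33 and 4.11 CPM in C3H 1, 3, 4 and 5, against 5.66, 5.54, 5.01 and 6.34 CPM in B6 2, 3, 4 and 5. The highest C3H library nearly met the lowest B6 library. Its log2 difference of -0.49 ± 0.14 had an adjusted p of 0.0305 in edgeR, and it lost the call without C3H 3, C3H 4, C3H 5, B6 3 or B6 5, with adjusted p up to 0.0806. Ndufaf2 and Ndufa12 thus differed in opposite directions between the strains. Ndufaf4, the most abundant assembly factor, averaged 18.7 ± 3.46 CPM in C3H and 18.3 ± 1.33 CPM in B6, and Ndufaf8 averaged 15.6 ± 1.79 CPM in C3H and 16.9 ± 0.855 CPM in B6.

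**Figure D3:**
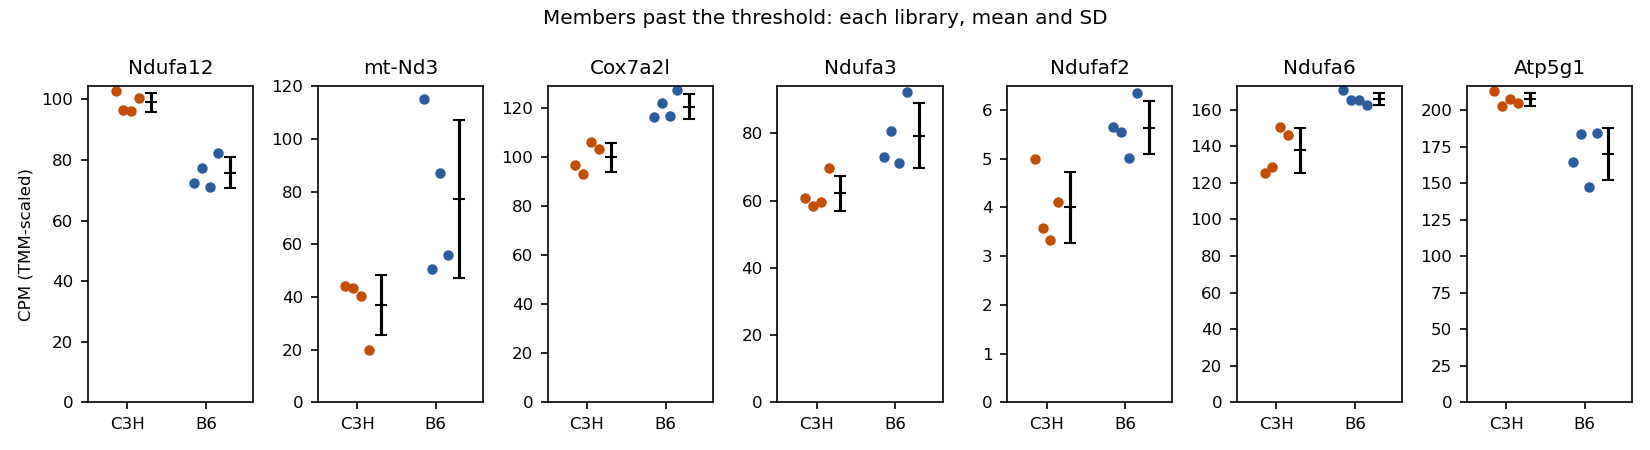
TMM-scaled CPM (y axis, from 0) of the 7 members past the threshold in each of 4 C3H and 4 B6 libraries, with the mean and SD of each strain. Groups do not overlap for any of the 7; the gap is widest relative to the spread for Ndufa12 (99.0 ± 3.25 CPM in C3H and 75.8 ± 5.11 CPM in B6), and mt-Nd3 has the widest spread.

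Complex II, succinate dehydrogenase, is made only of nuclear subunits and is also an enzyme of the citric acid cycle. Of its 4 genes 0 passed in edgeR, with 1 at an unadjusted p under 0.05, 1 called by DESeq2 and 0 by limma-voom. The gene nearest to a call was Sdhc, a membrane anchor that binds heme, at 217, 205, 236 and 248 CPM in C3H 1, 3, 4 and 5 and 268, 285, 247 and 291 CPM in B6 2, 3, 4 and 5. The groups overlapped at a single pair of libraries, C3H 5 and B6 4. Its log2 difference was -0.27 ± 0.09, with an adjusted p of 0.0595. The flavoprotein Sdha averaged 643 ± 55.1 CPM in C3H and 685 ± 23.5 CPM in B6, and the other membrane anchor, Sdhd, 397 ± 28.3 CPM in C3H and 359 ± 15.6 CPM in B6, with a log2 difference of 0.14 ± 0.09.

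Complex III, the cytochrome bc1 complex, had small differences throughout. Of its 9 genes 0 passed in edgeR, 1 had an unadjusted p under 0.05 (Uqcrb), and 0 were called by DESeq2 or limma-voom. All 9 log2 differences lay between -0.19 and 0.15, and every 95% interval lay within 1.5-fold. The core protein Uqcrc1, whose promoter is printed above, averaged 504 ± 58.2 CPM in C3H and 500.5 ± 61.3 CPM in B6, a log2 difference of 0.01 ± 0.12. Uqcrc2, the other core protein, averaged 388 ± 34.4 CPM in C3H and 368 ± 12.4 CPM in B6.

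Complex IV, cytochrome c oxidase, has several subunits with alternative isoforms for different tissues. Of its 21 tested genes 1 was called in edgeR, lower in C3H, 1 in DESeq2 and 2 in limma-voom, and 2 had an unadjusted p under 0.05; the median log2 difference was -0.09. Cox7a2l, also called SCAFI, joins complexes III and IV into supercomplexes, and C57BL/6 mice are known to make a shortened form of it. It was at 96.9, 93.1, 106 and 103 CPM in C3H 1, 3, 4 and 5, against 116, 122, 117 and 127 CPM in B6 2, 3, 4 and 5. The groups did not overlap. The log2 difference was -0.27 ± 0.08, with an adjusted p of 0.0261, and the call was lost without C3H 3, B6 3 or B6 5, with adjusted p up to 0.0745. Of its 50-base stretches 19.8% also occur in other genes, most of them in Gm6969. Reads of both strains were aligned to GRCm39, and whether reads of both forms align equally well was not tested.

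The main subunits of complex IV did not pass. Cox4i1 averaged 453 ± 48.4 CPM in C3H and 491 ± 54.2 CPM in B6, with a log2 difference of -0.12 ± 0.11, and Cox6a1 averaged 383 ± 23.2 CPM in C3H and 389 ± 49.7 CPM in B6. Ndufa4, named as a complex I subunit and since placed in complex IV, averaged 243 ± 20.6 CPM in C3H and 243 ± 13.5 CPM in B6. These levels are far above those of the isoforms typical of other tissues. Cox4i2, the isoform known from lung, averaged 0.573 ± 0.268 CPM in C3H and 0.437 ± 0.0745 CPM in B6, Cox6b2, known from testis, 2.10 ± 0.288 CPM in C3H and 2.59 ± 0.572 CPM in B6, and Ndufa4l2, the hypoxia-responsive paralogue, 0.903 ± 0.275 CPM in C3H and 0.678 ± 0.0748 CPM in B6.

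Cox6a2, the heart and skeletal muscle isoform, was low in every library and just missed the threshold. It was at 0.687, 0.653, 0.639 and 0.725 CPM in C3H 1, 3, 4 and 5, against 0.292, 0.564, 0.277 and 0.464 CPM in B6 2, 3, 4 and 5. The groups did not overlap. The log2 difference was 0.76 ± 0.25, the largest positive difference among the 106 members tested, with an adjusted p of 0.0511 in edgeR. It took 0.176% ± 0.00827 of the counts of Cox6a1 and Cox6a2 together in C3H and 0.101% ± 0.0238 in B6. The striated muscle markers Ckm, Acta1, Myh1, Tnnt3 and Actc1 summed to 9.67 to 13.6 CPM in C3H and 11.6 to 27.0 CPM in B6, and 1 of the 3 with enough counts to be tested was lower in C3H. Cox6a2 overlaps exons of Itgad on the opposite strand along 10.3% of its length, and the strand setting of the counting is not given in the sources used here.

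Cox7a1, known from heart and skeletal muscle, was by contrast a sizeable part of its pair, at 24.4% ± 1.18 of the counts of Cox7a1 and Cox7a2 in C3H and 21.3% ± 2.004 in B6 (SD, n = 4 each). It averaged 74.3 ± 15.3 CPM in C3H and 67.0 ± 5.52 CPM in B6, and Cox7a2 averaged 229 ± 34.9 CPM in C3H and 248 ± 15.4 CPM in B6. Neither passed the test. The shares of counts are not corrected for transcript length. Per kilobase, Cox7a1 was at 189 CPM and Cox7a2 at 348 CPM in C3H, against 170.5 and 377 CPM in B6. Cox8a, the general form of subunit 8, averaged 263 ± 12.3 CPM in C3H and 259.7 ± 22.1 CPM in B6. Its muscle and brown fat form Cox8b was too low to test, with 4, 58, 4 and 9 counts in C3H 1, 3, 4 and 5 and 3, 5, 4 and 5 counts in B6 2, 3, 4 and 5. The fat marker Adipoq was also highest in C3H 3, with 0, 1641, 54 and 65 counts in C3H 1, 3, 4 and 5 and 97 to 317 counts in B6, and so was the sum of the brown fat markers Ucp1, Cidea and Elovl3, at 0.960 CPM in C3H 3, 0.384 to 0.530 CPM in the other C3H libraries and 0.213 to 0.427 CPM in B6. Of these, Cidea had 24, 47, 15 and 13 counts in C3H 1, 3, 4 and 5 and 6 to 23 counts in B6, while Ucp1, which defines brown fat, had 0 to 3 counts in every library. The part of fat in the Cox8b value was not tested.

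The other members not tested were Cox8c and Cox7b2, both known from testis and both with 0 counts in every library, a second identifier of Atp5o with 0 counts, and the processed pseudogene Ndufa11b, with a mean of 0.217 CPM in C3H and 0.208 CPM in B6. Ndufb2 and Ndufb8, which are subunits of the finished complex I, were counted far below the others of that complex, at 7.18 ± 0.671 CPM in C3H and 6.41 ± 0.739 CPM in B6 for Ndufb2, and at 10.1 ± 1.04 CPM in C3H and 9.004 ± 1.14 CPM in B6 for Ndufb8. Ndufb8 lies on the same strand as the readthrough gene Gm20538 along 19.7% of its exons. Low counts of this kind are levels as counted, and reads that fit more than 1 gene may be missing from them. In all, 28 members share at least 20% of their 50-base stretches with another annotated gene.

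Complex V, the ATP synthase, held the most abundant nuclear members. Of its 19 tested genes 1 was called, higher in C3H, by edgeR and 1 each by DESeq2 and limma-voom, and 2 had an unadjusted p under 0.05. The catalytic subunit Atp5b averaged 2130 ± 149 CPM in C3H and 2132 ± 112 CPM in B6, a log2 difference of 0.00 ± 0.12, and the alpha subunit Atp5a1 averaged 1614 ± 119 CPM in C3H and 1573 ± 80.6 CPM in B6. Per kilobase of transcript, Atp5b was at 1112 CPM in C3H and 1113 CPM in B6, the highest of the nuclear members. Atp5f1, a stalk subunit, had groups that did not overlap, at 538 to 610 CPM in C3H and 471 to 511 CPM in B6, and a log2 difference of 0.21 ± 0.09 with an adjusted p of 0.118.

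The membrane ring of the ATP synthase is built from subunit c, and 3 nuclear genes, Atp5g1, Atp5g2 and Atp5g3, encode the same mature protein with different import signals. Atp5g1 was at 213, 203, 208 and 205 CPM in C3H 1, 3, 4 and 5, against 164, 184, 147 and 184 CPM in B6 2, 3, 4 and 5. The C3H libraries were nearly level and all above the B6 libraries. With a log2 difference of 0.29 ± 0.09, Atp5g1 had an adjusted p of 0.0411 in edgeR, just under the threshold, and the call was lost in 7 of the 8 fits that left out 1 library, all but the fit without B6 5, with adjusted p up to 0.127. Atp5g3, the most abundant of the 3, averaged 639 ± 71.5 CPM in C3H and 646 ± 56.5 CPM in B6, and Atp5g2 averaged 70.0 ± 2.86 CPM in C3H and 65.7 ± 5.54 CPM in B6. Of the counts of all 3 genes, Atp5g1 took 22.7% ± 1.77 in C3H and 19.3% ± 0.999 in B6, 3.46 percentage points more. The share is not corrected for transcript length, which was 4715 bases for Atp5g1, 731 for Atp5g2 and 723 for Atp5g3. Per kilobase of transcript Atp5g1 was the lowest of the 3, at 43.9 CPM in C3H and 36.0 CPM in B6. Its share of counts did not overlap between the strains. The exact two-sided permutation p was 0.0286, the smallest that 4 against 4 libraries can give, and 0.0857 after adjustment over the 6 isoform shares compared. The share of Cox6a2 gave the same pair of p-values, and those of Cox7a1, Cox4i2, Cox6b2 and Ndufa4l2 overlapped between strains. Of the 50-base stretches of Atp5g2, 87.4% also occur in other genes, most of them in Gm10175, so that its level is uncertain. For Atp5g1 the share was 11.6%, spread over 366 genes, and its part in the strain difference was not tested.

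Over all members, groups that did not overlap were found for 4 that were higher in C3H (Ndufa12, Atp5g1, Atp5f1 and Cox6a2) and for 6 that were lower (mt-Nd3, Ndufa3, Ndufa6, Ndufaf2, Cox7a2l and Atp5mpl). Among all genes tested the groups did not overlap for 12.7%, higher in C3H, and for 11.7%, lower in C3H.

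The 13 members of mitochondrial DNA spanned a wide range of levels. Per kilobase of transcript, mt-Co1, the catalytic subunit of complex IV, was highest at 12368 CPM in C3H and 13201 CPM in B6, followed by mt-Cytb, the cytochrome b of complex III, at 6417 CPM in C3H and 6691 CPM in B6, and by the complex I subunit mt-Nd1 at 4530 CPM in C3H and 5157 CPM in B6. The complex I subunits mt-Nd4, mt-Nd2 and mt-Nd5 came next, at 2446, 2109 and 1547 CPM per kilobase in C3H and 2456, 2229 and 1565 CPM in B6. Lowest in these poly(A)-selected libraries was mt-Nd6, the only member on the other strand of the mitochondrial genome, at 49.9 CPM per kilobase in C3H and 63.5 CPM in B6. How fully the selection captures each transcript was not tested, so this place is 1 among captured transcripts. The places of mt-Co2, mt-Co3, mt-Atp6, mt-Nd3 and mt-Nd4l, between 106 and 734 CPM per kilobase in C3H and between 125 and 784 CPM in B6, depend on how reads are shared with the nuclear copies described below.

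All 13 had negative log2 differences with TMM scaling, with a median of -0.13, and 1 of the 13 passed the test. With library totals as the only scaling mt-Nd4 (0.06), mt-Nd5 (0.05) and mt-Cytb (0.0020) were positive, and without B6 4 mt-Nd2, mt-Nd4, mt-Nd4l, mt-Nd5, mt-Cytb and mt-Co1 were. The common direction was weak: the median was -0.01 without B6 4 and -0.26 without B6 3, and mitochondrial genes share 1 pool of transcripts in each library. The large members were close to level. mt-Co1 averaged 19108 ± 1568 CPM in C3H and 20396 ± 4447 CPM in B6, a log2 difference of -0.09 ± 0.24, and mt-Cytb averaged 7341 ± 334 CPM in C3H and 7654 ± 1187 CPM in B6, a difference of -0.06 ± 0.17. For mt-Nd1 the difference was -0.19 ± 0.18, for mt-Nd2 -0.08 ± 0.15, for mt-Nd4 -0.01 ± 0.15 and for mt-Nd5 -0.02 ± 0.16. For mt-Co2 it was -0.10 ± 0.12, for mt-Co3 -0.23 ± 0.17, for mt-Atp6 -0.25 ± 0.22 and for mt-Nd4l -0.13 ± 0.25. Differences of genes with nuclear copies also depend on how reads are shared, as described below.

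mt-Nd3, a short membrane subunit of complex I that takes part in the switch between its active and resting forms, was the only mitochondrial member called. It was at 44.2, 43.4, 40.4 and 19.98 CPM in C3H 1, 3, 4 and 5, against 115, 50.7, 86.9 and 55.8 CPM in B6 2, 3, 4 and 5. Every C3H library was below every B6 library, but the strains differ most through B6 2 and B6 4, the libraries with the highest mitochondrial levels in general, and through C3H 5. The log2 difference was -1.06 ± 0.29, or 0.480-fold, with an adjusted p of 0.0236 in edgeR. Without B6 2, or without B6 4, it no longer passed, with an adjusted p of up to 0.0571, and it also did not pass with library totals as the only scaling or with a robust fit. The other low mitochondrial members varied widely too. mt-Atp8, a small subunit of the ATP synthase, was at 31.9, 28.3, 27.4 and 10.04 CPM in C3H 1, 3, 4 and 5, against 72.7, 14.2, 53.5 and 19.3 CPM in B6 2, 3, 4 and 5, a log2 difference of -0.71 ± 0.49 with an adjusted p of 0.356. Its groups overlapped, and the highest library was 3.17 times the lowest in C3H and 5.12 times the lowest in B6. For mt-Nd6, at 23.4 to 30.9 CPM in C3H and 27.3 to 37.3 CPM in B6, the log2 difference was -0.35 ± 0.12 with an adjusted p of 0.0565. Over the 13 members, the SD of log2 CPM within a strain went with transcript length at a Spearman rho of -0.59. The shorter transcripts varied more, but most of them also have nuclear copies, described below. Among the shorter members with a copy, this SD was 0.55 for mt-Nd3, 0.47 for mt-Nd4l, 0.40 for mt-Atp6, 0.30 for mt-Co3 and 0.18 for mt-Co2. Among those without an annotated copy, it was 0.97 for mt-Atp8 and 0.19 for mt-Nd6. The part of the copies in this relation was not tested. The 13 share the same libraries and poly(A) selection, and the value is a description only.

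Mitochondrial reads can also match copies of mitochondrial DNA that lie in the nuclear genome. A stretch of such copies is annotated on chromosome 1. For 7 of the 13 members, a copy there has at least 50% of its 50-base stretches in common with the member. Only annotated transcripts were searched, so a member outside these 7 may still have an unannotated copy. Among those is mt-Atp8, which overlaps mt-Atp6 along 21.1% of its length. Whether its reads are shared with the nuclear genome was not tested. The first 60 bases of mt-Nd3 and of its copy Gm28438 show how close they are, with a capital at the only substitution found between them, T3C (the base of mt-Nd3, the position counted from 1 at its 5′ end, then the base of the copy).
mt-Nd3: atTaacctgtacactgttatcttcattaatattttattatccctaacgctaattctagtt
Gm28438: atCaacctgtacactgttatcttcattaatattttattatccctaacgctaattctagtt
The 2 annotated sequences also differ in where they end, and 98.0% of the 50-base stretches of mt-Nd3 occur in other genes. The counts were split between member and copy: mt-Nd3 held 37.8% to 49.0% of the sum, mt-Atp6 28.1% to 30.2%, mt-Co3 30.2% to 38.7%, mt-Nd4l 26.9% to 38.0% and mt-Co2 52.9% to 60.2%. For mt-Nd4 and mt-Co1, whose copies cover only part of the gene, the member held 92.6% to 95.2% and 95.5% to 96.5%. The split did not overlap between the strains for mt-Co3, which held 30.2% to 34.3% in C3H and 35.45% to 38.7% in B6. Nor did it for mt-Co2, which held 57.8% to 60.2% in C3H and 52.9% to 56.6% in B6. The levels and strain differences of the first 5, as counted, leave out the reads given to the copy. Reads that fit both places may be missing from both counts, because the handling of multi-mapped reads is not stated.

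**Figure D4:**
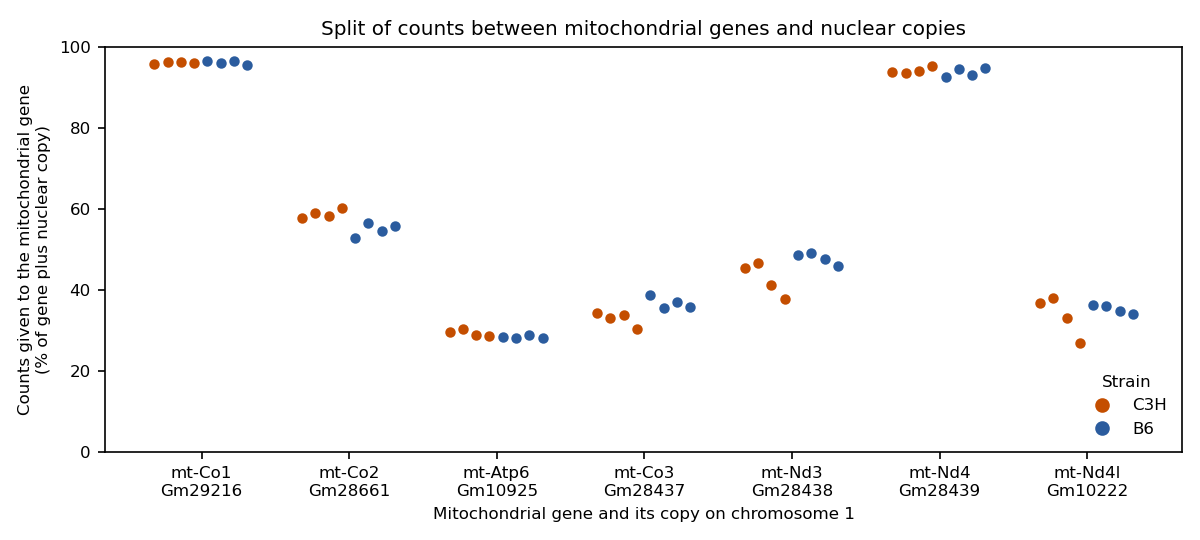
Share of counts given to the mitochondrial gene, as a percentage of the counts of the gene and its copy on chromosome 1 together (y axis), for 7 pairs (x axis) in 4 C3H and 4 B6 libraries; points are libraries. For mt-Atp6, mt-Co3, mt-Nd3 and mt-Nd4l the copy received the larger part in every library, between 49.0% and 26.9% going to the mitochondrial gene.

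The strain difference of mt-Nd3 was present in the copy as well and in the sum. Gm28438 alone gave a log2 difference of -0.80 ± 0.25 with an adjusted p of 0.0403 in edgeR. Of its 50-base stretches 99.0% also lie in mt-Nd3, and reads from these cannot be told apart. mt-Nd3 held 37.8% to 46.7% of the sum in C3H and 45.8% to 49.0% in B6. The base that each strain carries at T3C was not examined, so its part in this split was not tested. Added together, gene and copy were at 97.2, 93.0, 97.9 and 52.8 CPM in C3H 1, 3, 4 and 5, against 237, 104, 182 and 122 CPM in B6 2, 3, 4 and 5. The groups still did not overlap, and the log2 difference of the sum was -0.92 ± 0.26 with an adjusted p of 0.0288 in edgeR, a sum made after the values had been seen. The other 6 sums did not pass, and their log2 differences ran from -0.30 for mt-Atp6 to -0.01 for mt-Nd4. For mt-Co3 the sum gave -0.06 ± 0.16, beside -0.23 ± 0.17 for the gene alone. For mt-Co2 the sum gave -0.20 ± 0.13, beside -0.10 ± 0.12 for the gene alone.

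The genes around the complexes were read from 7 lists. Assembly factors outside the Nduf names had 3 of 43 higher and 5 lower, with a median log2 difference of -0.06; this was 18.6% called, near the 21.4% of all genes. Lyrm7, which helps to insert the iron-sulfur protein of complex III, was at 0.814 ± 0.161 CPM in C3H and 2.14 ± 0.156 CPM in B6, a log2 difference of -1.39 ± 0.17 with an adjusted p of 0.000163. Cox18, which inserts a part of mt-Co2 into the membrane, was at 6.19 ± 1.23 CPM in C3H and 2.92 ± 0.415 CPM in B6, a difference of 1.09 ± 0.16. Nubpl, an iron-sulfur assembly factor of complex I, was also higher in C3H (0.80 ± 0.12) and Coa4, a complex IV factor, lower (-0.38 ± 0.09). The first 3 of these had larger differences than the nuclear members that were called, while Uqcrfs1, the iron-sulfur protein on which Lyrm7 acts, averaged 286 ± 41.8 CPM in C3H and 266 ± 13.5 CPM in B6.

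Electron carriers and the enzymes that feed them had 5 of 22 higher and 2 lower (31.8% called, beside 21.4% of all genes), with a median of 0.11. Sqor, which passes electrons from sulfide to ubiquinone, was at 44.8, 54.8, 64.6 and 86.2 CPM in C3H 1, 3, 4 and 5, against 125, 131, 148 and 146 CPM in B6 2, 3, 4 and 5. All C3H libraries lay below all B6 libraries, with a log2 difference of -1.14 ± 0.17 and an adjusted p of 0.000635 in edgeR. The proline-oxidising enzyme Prodh was lower in C3H too (-0.54 ± 0.11), while Coq5 of ubiquinone synthesis (0.44 ± 0.10) and Etfb, which brings electrons from fatty acid oxidation (0.58 ± 0.13), were higher.

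The shares called in the other lists were 4% for mitochondrial DNA upkeep and transcription, 16.7% for nuclear regulators, 10% for the citric acid cycle, 11.8% for the outer membrane list and 6.41% for the mitochondrial ribosome, beside 21.4% of all genes. Of 25 genes of mitochondrial DNA upkeep and transcription 1 was higher, the ribosomal RNA methyltransferase Tfb1m (0.58 ± 0.13), with 5 at an unadjusted p under 0.05 and 1 call each by DESeq2 and limma-voom. Of 12 nuclear regulators, Ppara, a receptor that switches on fatty acid oxidation genes, was higher (log2 difference 1.11 ± 0.27), and Ppard was lower (-0.44 ± 0.14). Ppara was at 73.4 ± 15.4 CPM in C3H and 34.0 ± 16.0 CPM in B6. The groups overlapped for both, Ppara at 52.3 to 88.8 CPM in C3H and 21.4 to 57.4 CPM in B6. Ppard was at 100 to 159 CPM in C3H and 158 to 197 CPM in B6. Of 20 genes of the citric acid cycle and pyruvate dehydrogenase, Fh1 was higher (0.25 ± 0.08) and the pyruvate carrier Mpc1 lower (-0.49 ± 0.12). Of 17 genes of the outer membrane, import and carriers, Tomm22 (-0.45 ± 0.08) and Vdac2 (-0.31 ± 0.10) were the genes called, both lower. The mitochondrial ribosome had 1 of 78 higher, Mrpl49 (0.44 ± 0.09), and 4 lower, the first 3 by p being Mrpl27 (-0.85 ± 0.11), Mrpl55 (-0.63 ± 0.09) and Mrpl35 (-0.51 ± 0.10).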

How the data were processed

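The authors deposited 1 table of raw counts per gene, in whole numbers and without normalization, for the 8 libraries. Reads were aligned with STAR 2.7.9a and counted with HTSeq 2.0.2 on GRCm39, per the submitters' processing notes. The same build served both strains, and an effect of sequence differences between the strains on alignment was not tested. The annotation release, the strand setting and the handling of multi-mapped reads are not stated there. Symbols came from GENCODE M21 (GRCm38), in which 51948 identifiers had a symbol and 4993 had none, and no gene coordinates are given. The test was edgeR's (version 4.0.16, in R 4.3.3; TMM, filterByExpr with a minimum count of 10, quasi-likelihood F test, strain as the only term, Benjamini-Hochberg over 18025 genes, threshold 0.05). Standard errors were back-calculated from the F statistic. DESeq2 1.42.0 and limma 3.58.1 (voom) were alternatives.

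The members, gene lists and tests were chosen with earlier results of these data known. Named with values were the called members, all mitochondrial members, the 2 most abundant nuclear members of each complex, tissue isoforms, untested members, and up to 4 called genes of each related list by p. Sdhc, Uqcrb, Uqcrfs1, Atp5f1, Atp5mpl, Ndufb2 and Ndufb8 fall outside that rule and were named after their values were seen. The permutation test of isoform shares was also added after the values were seen. A member that this rule names is not reported here. Shared sequence was counted as 50-base stretches that also occur in transcripts of other M21 genes, and per-kilobase levels use the principal transcript. Libraries of 1 strain differed by far more than counting noise, so none was the same library deposited again; this does not show that they came from different animals. Libraries with equal replicate numbers had correlations of deviations of 0.0058, 0.18 and -0.052 across strains, for numbers 3, 4 and 5. Only for number 4 was the B6 library of that number the best match. Such low values do not exclude a pairing, and the fit used none.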

Additional observations from a re-analysis of the deposited data

Results flagged for a closer look

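In each strain every member's 4 values were checked for a single library standing apart by Dixon's criterion at the 95% level, and 7 of 216 groups met it, fewer than the 1 in 20 that chance gives. C3H 5 stood apart for 3 members, low for mt-Nd3 (19.98 CPM, the other C3H libraries at 40.4 to 44.2 CPM), low for mt-Atp6 (277 CPM, the others at 367 to 385 CPM) and high for Cox5b (264 CPM, the others at 240 to 243 CPM). C3H 1 stood apart for mt-Nd4 (3234 CPM, the others at 3403 to 3427 CPM) and for Ndufa4l2 (1.32 CPM, the others at 0.749 to 0.779 CPM). C3H 3 stood apart for Cox8b (1.11 CPM, the others at 0.0785 to 0.242 CPM). B6 5 stood apart for Ndufb5 (109.9 CPM, the others at 99.9 to 101 CPM). Without C3H 5, the 3 remaining C3H values of mt-Nd3 still lay below all 4 B6 values, and its call held.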

How the results depend on the processing

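No call turned its direction under any alternative run, or in the 8 fits that left out 1 library. Higher members numbered 2, but 1 with DESeq2 size factors, 1 without a low-count filter and 0 without the 4 pancreas-rich libraries. Lower members numbered 5, but 1 with library totals only and 1 without the 4 pancreas-rich libraries. Leaving out 1 library gave 1 to 2 higher and 1 to 5 lower, with 1 lower without C3H 3 or B6 5 and 2 lower without B6 3. In the 6 libraries with shared numbers, the replicate block gave 0 higher and 4 lower, and the same libraries with no replicate block gave 1 higher and 3 lower; the log2 fold change of Ndufa12 lost its call under the block (adjusted p = 0.0504 in edgeR) and kept it in those libraries without it (0.0321). The medians moved by less than the spread between libraries: from -0.05 to 0.05 for nuclear and from -0.26 to -0.01 for mitochondrial members, so the nuclear median has no settled sign. Adding the nuclear copies, an alternative chosen after seeing the data, kept 2 higher and 5 lower. Calls were gained in some alternatives by mt-Nd6, Sdhc, Cox6a2 and Atp5f1. Leaving out libraries leaves fewer samples; other causes of these shifts were not tested. Depth limits mainly Cox6a2, Cox4i2, Ndufa4l2 and the pseudogenes, all under 1.5 CPM.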

Other observations

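Nnt, which uses the proton gradient to make NADPH and is known to be defective in the C57BL/6J substrain, could not inform on the substrain here, because it was too low to test in both strains: it had 8, 6, 10 and 7 counts in C3H 1, 3, 4 and 5 and 11, 6, 17 and 11 counts in B6 2, 3, 4 and 5. It was looked at after the other values had been seen.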
